A study of Mus musculus with 64 samples.

Results

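Splenic CD4 T cells that had lost Roquin were set directly against CD4 T cells that had lost Regnase-1, both without restimulation, to find transcripts that depend on one of these RNA-binding proteins more than on the other. All libraries labelled DKO at 0 h and KO at 0 h were used, which is 8 of the 64 libraries of the series, 4 in each group. DKO cells came from Rc3h1/2 fl/fl; Cd4-Cre-ERt2 mice and lack Roquin-1 and Roquin-2. KO cells came from Zc3h12a fl/fl; Cd4-Cre-ERt2 mice and lack Regnase-1. TKO cells carried the floxed alleles of all 3 genes, and WT cells carried Cd4-Cre-ERt2 with no floxed allele; each of these groups also had 4 libraries at 0 h, and their values are given beside those of DKO and KO cells. Every mouse was of strain C57BL/6J and every culture received 4'-OH-tamoxifen, so that all groups, WT included, share the inducible Cre and the drug. The cells were then stimulated through CD3 and CD28 in Th1 medium for 40 h and kept in IL-2 for 2 more days. The unrestimulated cells are therefore previously activated, IL-2-fed T cells and not naive ones. Restimulated libraries of the same genotypes were taken at 1, 2 and 4 h. The ages of the mice are not given in the labels. The labels number the replicates but do not say that each is a separate mouse, so the spread behind each p-value may be technical.

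Rc3h1 encodes Roquin-1 and Rc3h2 its paralogue Roquin-2. These proteins bind stem-loops in 3' untranslated regions and bring the deadenylation and decapping machinery to the mRNA. Regnase-1, encoded by Zc3h12a, is an endonuclease that cuts mRNAs at stem-loops of a related shape. In T cells these proteins are known to restrain mRNAs for costimulatory receptors, atypical IκB proteins and transcription factors, and the MALT1 protease cleaves them after antigen receptor engagement. The comparison asks which mRNAs are higher without Roquin than without Regnase-1, and the reverse.

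The deposited values returned whole reads, with 6972973 to 8348181 reads in the 8 libraries and 5369873 to 11666589 over the series. Levels below are reads scaled to the median depth of 7720297 reads, called normalised reads, and differences are log2 of (normalised reads + 1), DKO minus KO, ± SE. The CD4 T cell markers summed to 1571 to 1706 CPM (reads scaled to a common library total) in DKO libraries and 1415 to 1676 CPM in KO libraries, and none of the 9 differed by the test used below. B cell markers summed to 226 to 280 CPM in DKO libraries and 237 to 325 CPM in KO libraries, nearly all of it Ighm. Regulatory T cell markers summed to 174 to 280 CPM in DKO libraries and 182 to 336 CPM in KO libraries. Myeloid markers summed to 57.9 to 65.0 CPM in DKO libraries and 60.7 to 82.2 CPM in KO libraries, most of it Ctss. Among the other marker lists the CD8 T cell sum reached 41.9 CPM in 1 KO library, and no marker of any list was called. In these bulk samples, fewer cells of a type and less RNA per cell cannot be told apart. DKO library 3, named by its place in the deposited list, was the highest DKO library for many of the genes below, and values without it are given where they change a call.

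The targeted genes were examined first. Zc3h12a had 33.5, 44.2, 39.4 and 47.0 CPM in DKO libraries, against 16.2, 14.7, 20.2 and 9.82 CPM in KO libraries. The groups did not overlap (exact permutation test, two-sided, p = 0.0286, the smallest that 4 against 4 libraries allow; 0.0429 after Benjamini-Hochberg adjustment over the 3 genes). TKO libraries averaged 17.1 ± 5.26 CPM and WT libraries 11.9 ± 1.90 CPM (SD, n = 4 each). At 0 h, Zc3h12a mRNA was therefore not lower in KO than in WT cells, and the difference between DKO and KO cells lay in the high level of DKO cells. Rc3h1 averaged 71.6 ± 5.47 CPM in DKO libraries and 94.1 ± 7.52 CPM in KO libraries (SD, n = 4 each), again without overlap (exact permutation test, p = 0.0286, adjusted p = 0.0429). Rc3h2 averaged 99.6 ± 12.2 CPM in DKO libraries and 89.1 ± 7.73 CPM in KO libraries, a difference within the libraries' spread (exact permutation test, p = 0.200). Which exons were floxed is not stated in the labels, and counts over whole genes include exons outside them, so these values check the genotypes only in part. The group names below are those of the labels.

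Of 16140 genes tested, 193 differed between DKO and KO cells at an adjusted p below 0.05 (limma on log2 values over all 64 libraries, Benjamini-Hochberg), which is 1.20% of the genes. More genes were higher in DKO cells, 136 (0.843%), than lower, 57 (0.353%). The median size of the difference was 0.92 log2 for the genes higher in DKO cells and 0.87 log2 for those lower in DKO cells. A size over 1 log2 was reached by 61 of the 136 and by 24 of the 57, and a size over 2 log2 by 17 and by 3. The DKO and KO libraries did not overlap for 122 of the 136 genes and 47 of the 57, while over all genes tested 3.86% had every DKO library above every KO library and 2.09% had every DKO library below. Protein-coding genes made up 131 of the 136 and 53 of the 57. The number of calls rested on the spread estimated from the whole series: a fit to the 8 libraries alone called 89 genes, 66 higher and 23 lower in DKO cells. Without DKO library 3 the number was 107, without KO library 1 it was 114 and without KO library 3 it was 118. The naming rule picked the genes with the greatest differences only where the groups did not overlap. The lack of overlap stated for those genes below is therefore no further evidence. Of the 36 called genes that the naming rule picked, 11 lost the call without DKO library 3, at adjusted p of 0.052 to 0.258 and with no sign turned. Called under every alternative that kept the gene were 17 of the 36, namely Zc3h12a, Nfkbid, Il9r, Slc30a2, Lbp, Unc5b, Capn3, Ebi3, Dab2ip, Serpinb6b, AA467197, Ifitm1, Gm1647, 9130208D14Rik, Slc30a4, Prickle1 and Cdc42bpb. Slc30a2 was tested in 19 of the 20 alternatives.

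**Figure D1:**
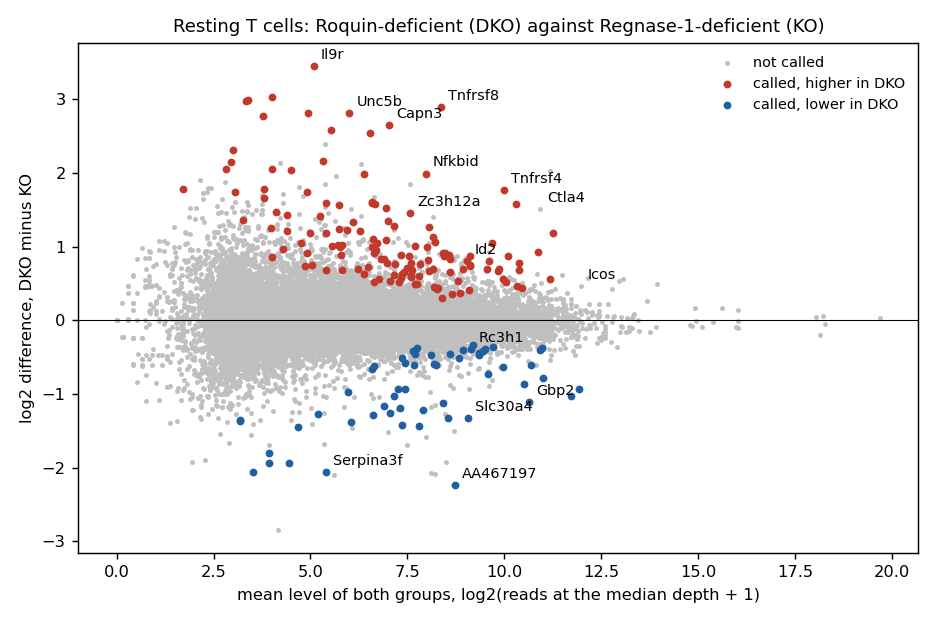
Log2 difference, DKO minus KO, at 0 h (vertical axis) against the mean level of both groups (horizontal axis, log2 of normalised reads + 1) for the 16140 genes tested. Red points are the 136 genes higher in DKO cells and blue points the 57 lower in DKO cells; Ctla4 and Icos, in grey, were not called.

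Genes long known as targets of Roquin or Regnase-1 were considered next. Of the 21 measured, 3 were higher in DKO cells (14.3%, against 0.843% of all genes), none was lower (against 0.353%) and 18 did not pass the test, and the median difference over the 21 was 0.14 log2 against 0.00 over all genes tested. The 3 genes were Zc3h12a, Nfkbid and Tnfrsf4. Zc3h12a is itself the gene targeted in KO cells, so its call cannot be read apart from the targeting. Nfkbid encodes IκBNS, an atypical nuclear IκB protein. Its level was 328, 574, 280.0 and 426 normalised reads in DKO libraries, against 106, 66.0, 113 and 111 in KO libraries. No library overlapped, and the difference was 1.99 ± 0.28 (limma, adjusted p = 4.39e-06). Nfkbid averaged 485 normalised reads in TKO cells and 122 in WT cells, so that the KO mean of 98.8 lay beside the WT mean. Tnfrsf4 encodes OX40, a costimulatory receptor of activated T cells. Its level was 1094, 1208, 2808 and 1225 normalised reads in DKO libraries, against 524, 603, 323 and 327 in KO libraries. The groups were apart, with DKO library 3 far above the other 3 DKO libraries (difference 1.77 ± 0.30, limma, adjusted p = 0.000134). The mean was 1977 in TKO cells and 344 in WT cells. For Zc3h12a itself the difference on the same scale was 1.45 ± 0.19 (limma, adjusted p = 7.15e-07).

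Other known targets gave no call. Icos, the inducible costimulator whose mRNA is a classical Roquin target, had 3862 to 6346 normalised reads in DKO libraries, against 2718 to 4092 in KO libraries. The groups overlapped (0.47 ± 0.40, limma, adjusted p = 0.82), and both stood above the WT mean of 701 and below the TKO mean of 9917. Ctla4, the inhibitory receptor of the CD28 family, had 3538, 1454, 4857 and 1821 normalised reads in DKO libraries, against 776, 1535, 552 and 1039 in KO libraries. Its lowest DKO library fell inside the range of the KO libraries, and the difference of 1.51 ± 0.42 narrowly missed the threshold (limma, adjusted p = 0.0573, and 0.0227 to 0.321 over the alternatives tried). Nfkbiz, which encodes the atypical IκB protein IκBζ, averaged 985 ± 304 normalised reads in DKO libraries and 1204 ± 54.5 in KO libraries (SD, n = 4 each; -0.34 ± 0.21, limma, adjusted p = 0.66). Irf4, a transcription factor of activated lymphocytes, averaged 1354 and 927 normalised reads in DKO and KO libraries (0.56 ± 0.21, limma, adjusted p = 0.239). Rel, the c-Rel subunit of NF-κB, averaged 277 and 249 (0.14 ± 0.17, limma, adjusted p = 0.92). A missed threshold does not show that these mRNAs are equal in DKO and KO cells.

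Stem-loops of the kind that Roquin and Regnase-1 bind were looked for in the longest annotated 3' untranslated region of each gene (GENCODE M21, GRCm38, sense strand). A hairpin was taken as a loop of 3 bases reading pyrimidine, purine, pyrimidine, closed by at least 6 consecutive Watson-Crick pairs. The examples below belong to the known targets just described and are shown because they let the called and uncalled mRNAs be compared. They are written as DNA, 5' to 3', with the 3 loop bases in capitals.
Nfkbid, first hairpin, chr7:30428402-30428416, plus strand: gatttcTGTgaaatc
Nfkbid, second hairpin, chr7:30428430-30428444, plus strand: tgtttcTGTgaaaca
Tnfrsf4, chr4:156016541-156016555, plus strand: gtatgcTATgcatac
Zc3h12a, first hairpin, chr4:125119069-125119083, minus strand: gatacaCATtgtatc
Zc3h12a, second hairpin, chr4:125118887-125118901, minus strand: aggcacCATgtgcct
Icos, chr1:60999831-60999845, plus strand: atttccTATggaaat
Nfkbiz, chr16:55812613-55812629, minus strand: ttgtttcTATgaaacaa
In the hairpins printed, the loop reads TGT in Nfkbid, CAT in Zc3h12a, and TAT in Tnfrsf4, which was called, as in Icos and Nfkbiz, which were not. Zc3h12a, Icos and Nfkbiz each held 1 further hairpin, with the loops TAT, TAC and TAT. Hairpins of Ctla4 and Rel, which were not called either, had the loops CAT and TAT, so the loops CAT and TAT stood in called and uncalled targets. Among the genes with an annotated 3' untranslated region, 22 of 129 that were higher in DKO cells held such a hairpin (17.1%), as did 8 of 49 that were lower (16.3%) and 1360 of all 13579 (10.02%). Their median 3' untranslated regions were 1083, 1333 and 1179 bases long, and the hairpins numbered 0.122, 0.0893 and 0.0665 per 1000 bases. The shorter pattern TTCNNNGAA, which overlaps some of these hairpins, stood in 32.6% of the genes higher in DKO cells, 42.9% of those lower and 36.9% of all. A match describes the sequence and is not a measured binding site.

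Genes for costimulatory receptors and ligands gave 3 calls among 15 measured, all higher in DKO cells (0.843% of all genes were), with a median of 0.41 log2 over the list. Beside Tnfrsf4, they were Tnfrsf8 and Tnfsf14. Tnfrsf8 encodes CD30, a receptor of the TNF receptor family. Its level was 165, 542, 1053 and 610 normalised reads in DKO libraries, against 59.5, 107, 51.0 and 54.8 in KO libraries. DKO library 1 lay closest to the KO libraries, and the groups did not overlap (2.89 ± 0.73, limma, adjusted p = 0.0297; 0.164 without DKO library 3). In all, 8 of the 20 alternatives lost the Tnfrsf8 call. Tnfrsf8 averaged 2141 in TKO cells and 36.1 in WT cells. Tnfsf14 encodes LIGHT, a ligand for the receptor HVEM. It had 92.4, 32.6, 118 and 78.4 normalised reads in DKO libraries, against 22.7, 22.9, 22.8 and 27.9 in KO libraries, with no overlap (1.56 ± 0.26, limma, adjusted p = 0.000109). The 12 other members of the list ranged from -0.26 log2 for Cd27 to 0.53 log2 for Tnfrsf25.

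Inhibitory receptors gave 2 calls among 13, both higher in DKO cells (15.4%, against 0.843% of all genes), with a median of 0.50 log2. Pdcd1, which encodes PD-1, had 24.5, 19.5, 37.3 and 17.8 normalised reads in DKO libraries, against 17.01, 15.6, 12.8 and 5.22 in KO libraries. The DKO libraries lay just above the KO libraries (0.97 ± 0.25, limma, adjusted p = 0.0281), and without DKO library 3 the call was lost (adjusted p = 0.227). In all, 8 of the 20 alternatives lost the Pdcd1 call (limma, adjusted p up to 0.513). Entpd1 encodes CD39, the ectoenzyme that breaks down extracellular ATP and ADP. It had 314 to 379 normalised reads in DKO libraries, against 144 to 197 in KO libraries (0.99 ± 0.23, limma, adjusted p = 0.0107; 0.0616 without KO library 3). Here the DKO mean of 343 lay beside the WT mean of 317, while KO and TKO cells averaged 173 and 125. Against WT cells, Entpd1 differed by 0.12 log2 in DKO cells and by -0.87 in KO cells (limma, adjusted p = 0.80 and 0.031).

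Cytokine and chemokine systems each gave single calls, all higher in DKO cells, as were 0.843% of all genes. Il9r, the receptor chain specific for IL-9, had the highest difference of all genes called, with 71.6, 48.4, 95.1 and 30.3 normalised reads in DKO libraries, against 6.62, 1.83, 5.47 and 4.35 in KO libraries. Every DKO library was several times above every KO library (3.45 ± 0.52, limma, adjusted p = 1.37e-05), and TKO and WT cells averaged 87.8 and 2.02. It was the only call among 23 cytokine receptor and feedback genes, whose median was 0.11 log2. Ebi3 encodes the subunit shared by IL-27 and IL-35. It had 156, 128, 220 and 122 normalised reads in DKO libraries, against 24.6, 40.3, 21.9 and 19.2 in KO libraries, without overlap (2.54 ± 0.39, limma, adjusted p = 2.24e-05). Its mean was 196 in TKO cells and 7.67 in WT cells. The other 25 cytokine and chemokine genes gave no call, and the list's median was -0.11 log2. Ccr6, the receptor for CCL20 and a mark of Th17 cells, had 24.5, 16.8, 78.2 and 22.3 normalised reads in DKO libraries, against 3.78, 4.58, 19.1 and 4.35 in KO libraries. Each group held a library far above its other 3, the groups overlapped, and the call (2.04 ± 0.53, limma, adjusted p = 0.0303) was lost without DKO library 3 (adjusted p = 0.258). Of the 19 alternatives that kept Ccr6, 7 lost the call. Ccr6 was the single call among 13 chemokine receptors and among 11 Th17 genes.

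For the lists that follow, the shares over all genes were 0.843% higher and 0.353% lower in DKO cells. Among 26 T cell transcription factors, Id2 alone was called, with a list median of 0.28 log2. Id2 encodes an inhibitor of E proteins and is known for its role in effector T cells. It had 614, 618, 881 and 559 normalised reads in DKO libraries, against 424, 329, 353 and 407 in KO libraries, with no overlap (0.80 ± 0.17, limma, adjusted p = 0.00403; 0.062 without DKO library 3). Among 19 genes of survival and death, Bid, a BH3-only protein, averaged 91.1 ± 8.42 normalised reads in DKO libraries and 55.9 ± 7.77 in KO libraries (SD, n = 4 each; 0.70 ± 0.17, limma, adjusted p = 0.0149, and up to 0.202 over the alternatives, 5 of which lost the call). Bid lies opposite Bcl2l13, which had 132% as many reads, and whether the counting used strand is not stated in the sources used here. Among 20 genes of the NF-κB pathway, Nfkbid was the only call and the median was 0.04 log2. Among 28 mRNA decay factors, the calls were Zc3h12a, higher in DKO cells, and Rc3h1, lower in DKO cells at -0.40 ± 0.10 (limma, adjusted p = 0.0296; 0.0635 without DKO library 3 and up to 0.267 over the alternatives). Both are targeted genes.

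**Figure D2:**
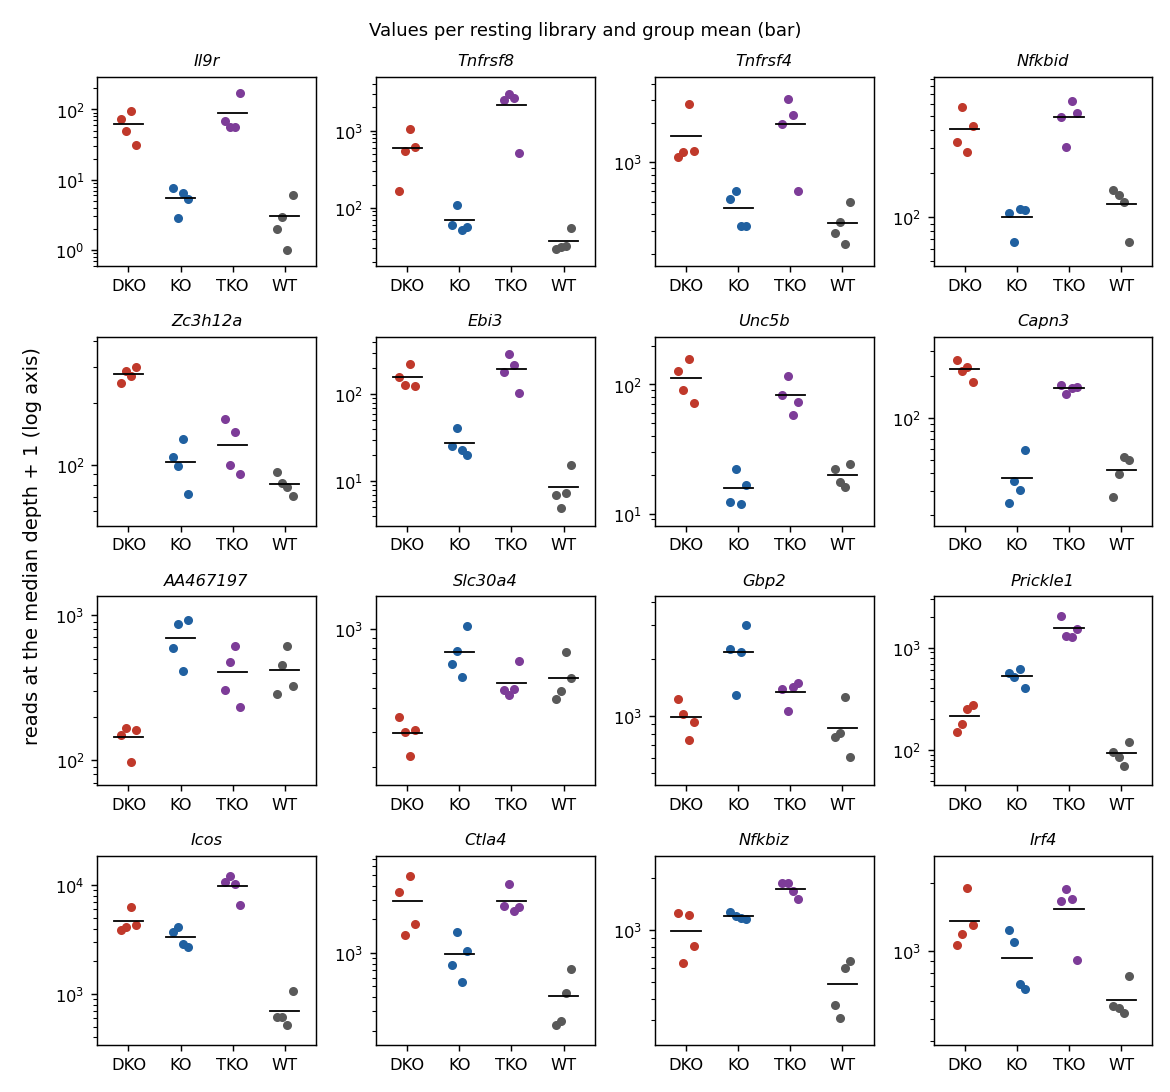
Normalised reads + 1 (log axis) of 16 genes in each library at 0 h, in DKO, KO, TKO and WT cells; points are libraries and bars group means. Nfkbid and Tnfrsf4 are high in DKO and TKO cells and near the WT level in KO cells, AA467197 and Slc30a4 are low in DKO cells, and Icos is high in DKO, KO and TKO cells.

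The other genes with the greatest differences among those higher in DKO cells come from unrelated families. Unc5b encodes a netrin receptor. It had 126, 89.3, 157 and 71.3 normalised reads in DKO libraries, against 11.3, 21.1, 10.9 and 15.7 in KO libraries (2.81 ± 0.30, limma, adjusted p = 5.04e-09). All DKO libraries lay above all KO libraries, and WT cells, with a mean of 18.9, were like KO cells. Capn3, a calpain protease, had 258, 216, 229 and 180 normalised reads in DKO libraries, against 23.6, 33.9, 29.1 and 57.5 in KO libraries (2.65 ± 0.27, limma, adjusted p = 1.59e-09). Capn3 overlaps Ganc on the same strand, which had 85.9% as many reads, so that the reads of these genes may be split uncertainly. Slc30a2, a zinc transporter of vesicles, had 19.9 to 47.1 normalised reads in DKO libraries, against 0.916 to 4.73 in KO libraries (3.03 ± 0.56, limma, adjusted p = 0.000594). Lbp, the lipopolysaccharide-binding protein, had 29.8 to 77.9 in DKO libraries, against 4.35 to 8.25 in KO libraries (2.82 ± 0.49, limma, adjusted p = 0.000216). Neither overlapped between the groups. Dab2ip, a Ras GTPase-activating protein, had 48.0 to 104 in DKO libraries, against 10.5 to 17.3 in KO libraries (2.17 ± 0.40, limma, adjusted p = 0.000536). Serpinb6b, a member of a serpin family with close copies among which reads may be shared, averaged 132 ± 46.8 in DKO libraries and 31.7 ± 6.22 in KO libraries, SD, n = 4 each (1.99 ± 0.32, limma, adjusted p = 4.75e-05). Phlda1 had 13.0 to 24.9 in DKO libraries, against 2.61 to 9.45 in KO libraries (1.79 ± 0.39, limma, adjusted p = 0.006, and up to 0.386 over the alternatives, 5 of which lost the call). Wnt10b, a secreted Wnt ligand, had 9.96, 3.72, 67.6 and 14.3 normalised reads in DKO libraries, against 1.89, 0, 0.911 and 3.48 in KO libraries. DKO library 3 was far above the other 3 DKO libraries (2.77 ± 0.56, limma, adjusted p = 0.00216), and without it the difference was 2.05 and not called (adjusted p = 0.0567). In all, 4 of the 20 alternatives lost the Wnt10b call (limma, adjusted p up to 0.168).

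Of the genes lower in DKO cells, AA467197 and Slc30a4, which lie near each other on chromosome 2 (AA467197 at chr2:122636986-122641191, plus strand, and Slc30a4 at chr2:122681233-122702663, minus strand, GRCm38), had the smallest adjusted p-values together with Cdc42bpb. AA467197, which encodes NMES1 and hosts miR-147, had 148, 167, 96.9 and 159 normalised reads in DKO libraries, against 592, 864, 410 and 921 in KO libraries. Every DKO library was below every KO library (-2.24 ± 0.31, limma, adjusted p = 4.72e-06). TKO and WT cells averaged 405 and 418, between the DKO mean of 143 and the KO mean of 697. Against WT cells, AA467197 differed by -1.51 in DKO cells and by 0.73 in KO cells (limma, adjusted p = 0.0009 and 0.37). Slc30a4, a zinc transporter, had 359, 301, 227 and 308 normalised reads in DKO libraries, against 660, 769, 573 and 1036 in KO libraries (-1.33 ± 0.16, limma, adjusted p = 1.12e-07). Again TKO cells, at 533, and WT cells, at 564, lay between DKO and KO cells. Drc1, a subunit of the dynein regulatory complex of cilia, had 43.6 to 128 normalised reads in DKO libraries, against 164 to 313 in KO libraries (-1.42 ± 0.29, limma, adjusted p = 0.00294; 0.062 without DKO library 3), with TKO cells at 111 and WT cells at 230. Ifitm1, an interferon-induced membrane protein, had 7.25, 10.2, 4.44 and 9.80 in DKO libraries, against 29.3, 20.1, 34.6 and 49.6 in KO libraries (-1.93 ± 0.36, limma, adjusted p = 0.000811). The groups did not overlap, and Ifitm1 was the only call among 4 IFITM genes, whose median was -0.65 log2 (0.353% of all genes were lower in DKO cells). Nacc2, a BTB domain repressor, averaged 21.03 ± 7.92 in DKO libraries and 50.8 ± 16.4 in KO libraries (SD, n = 4 each; -1.27 ± 0.32, limma, adjusted p = 0.0286; 0.235 without DKO library 3). In all, 5 of the 20 alternatives lost the Nacc2 call.

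For another set of genes lower in DKO cells, KO cells stood above WT cells. By the same test, 1235 genes (7.65%) differed between DKO and WT cells, 864 higher (5.35%) and 371 lower (2.30%) in DKO cells, and 213 (1.32%) between KO and WT cells, 186 higher (1.15%) and 27 lower (0.167%) in KO cells. These comparisons share libraries with the one of DKO and KO cells, so they are given only as values beside it. Prickle1, a planar cell polarity protein, had 149, 179, 250 and 276 normalised reads in DKO libraries, against 559, 521, 625 and 400 in KO libraries. The groups were apart (-1.32 ± 0.23, limma, adjusted p = 0.000194), and the means of TKO and WT cells were 1542 and 91.7. Against WT cells, Prickle1 was higher by 1.19 in DKO cells and by 2.52 in KO cells (limma, adjusted p = 0.000276 and 6.5e-12). Cdc42bpb, a kinase that acts with the GTPase Cdc42, had 57.1, 63.3, 44.4 and 58.8 normalised reads in DKO libraries, against 113, 135, 155 and 148 in KO libraries (-1.29 ± 0.18, limma, adjusted p = 2.56e-06). TKO cells averaged 174 and WT cells 54.4, and the difference from WT cells was 0.05 in DKO cells and 1.34 in KO cells (limma, adjusted p = 0.89 and 3.1e-07). Gm1647, a predicted gene, had means of 5.85 in DKO, 22.8 in KO, 241 in TKO and 6.07 in WT cells (-1.80 ± 0.38, limma, adjusted p = 0.00378). Gbp2, an interferon-inducible GTPase, had 1223, 1016, 748 and 930 normalised reads in DKO libraries, against 2235, 1282, 2179 and 3020 in KO libraries (-1.11 ± 0.19, limma, adjusted p = 0.000109). Its TKO and WT means were 1335 and 858. Gbp2 was the only call among 15 guanylate-binding and related GTPase genes (0.353% of all genes were called lower in DKO cells). Of the 15, 12 had a negative difference, as had 8083 of all 16140 genes tested. Serpina3f, of a serpin family with close copies, averaged 15.5 ± 8.08 in DKO libraries and 66.8 ± 36.0 in KO libraries (SD, n = 4 each; -2.06 ± 0.51, limma, adjusted p = 0.024), a call that was lost without DKO library 3 (adjusted p = 0.052). In all, 7 of the 20 alternatives lost the Serpina3f call. Its KO and WT means of 66.8 and 26.8 did not differ by the test (limma, adjusted p = 0.17).

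Also lower in DKO cells were Pigz, a mannosyltransferase of the GPI anchor pathway, Sh3bgrl2 and 9130208D14Rik. Pigz had 2.67 to 14.0 normalised reads in DKO libraries, against 19.9 to 28.4 in KO libraries (-1.93 ± 0.43, limma, adjusted p = 0.00828; 0.0748 without DKO library 3). Sh3bgrl2 had 5.58 to 20.4 in DKO libraries, against 24.7 to 47.2 in KO libraries (-1.45 ± 0.30, limma, adjusted p = 0.00309). 9130208D14Rik had 26.1 to 49.8 in DKO libraries, against 91.7 to 95.8 in KO libraries (-1.39 ± 0.30, limma, adjusted p = 0.00456). None of these overlapped between the groups, which the naming rule required. 9130208D14Rik lies opposite Gm15645, which had 35.7% as many reads.

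Several other called genes were chosen after their values were seen, and their calls were not recomputed under the alternatives. Polr1c, a subunit of RNA polymerases I and III, averaged 377 ± 51.6 normalised reads in DKO libraries and 156 ± 23.9 in KO libraries (SD, n = 4 each; 1.27 ± 0.13, limma, adjusted p = 1.86e-09). Med23, a Mediator subunit, averaged 497 ± 38.6 and 280.3 ± 37.5 in DKO and KO libraries (0.83 ± 0.10, limma, adjusted p = 1.12e-07). Lfng, the Lunatic fringe glycosyltransferase that modifies Notch receptors, averaged 1890 ± 458 and 620 ± 91.8 (1.58 ± 0.20, limma, adjusted p = 2.15e-07). Both integrin genes Itgal and Itgb1 were higher in DKO cells: Itgal, the alpha chain of LFA-1, by 0.56 ± 0.11 and Itgb1 by 0.92 ± 0.20 (limma, adjusted p = 0.003 and 0.00639). Lmna, which encodes lamin A and C, differed by 1.34 ± 0.20 and Gfi1, a transcriptional repressor, by 1.58 ± 0.42 (limma, adjusted p = 1.8e-05 and 0.0439). On the lower side were Arhgap5 at -1.03 ± 0.15, Enah at -1.20 ± 0.23 and Dock4 at -1.26 ± 0.21 (limma, adjusted p = 1.04e-05, 0.000812 and 7.49e-05). Dock4 averaged 76.0 in DKO, 187 in KO, 51.3 in TKO and 240 in WT cells, and Arhgap5 averaged 93.1, 190 and 168 in DKO, KO and TKO cells and 82.2 in WT cells.

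Many gene groups gave no call in either direction, as most lists of this size would where 1.20% of all genes are called. These were the Th1 list of 12 genes, the Th2 and regulatory T cell lists of 11 each, 13 naive and memory genes, 11 cytotoxic genes, 22 interferon-stimulated genes, 12 DNA-sensing genes, 21 immediate early genes, 24 cell cycle genes, 19 glycolysis genes, 19 cholesterol synthesis genes, 10 heat shock genes and 7 mitochondrially encoded genes. All 19 cholesterol synthesis genes had a negative difference, between -0.59 and -0.03 log2, with a median of -0.38. A negative difference was also found for 9 of the 10 heat shock genes, all 7 mitochondrially encoded genes and 8083 of all 16140 genes tested. Ifng, the signature cytokine of Th1 cells, averaged 45.3 ± 20.3 normalised reads in DKO libraries and 208 ± 220 in KO libraries (SD, n = 4 each), a difference within the libraries' spread (limma, adjusted p = 0.248). Medians of the interferon-stimulated and the Th1 lists were -0.17 and 0.02 log2.

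**Figure D3:**
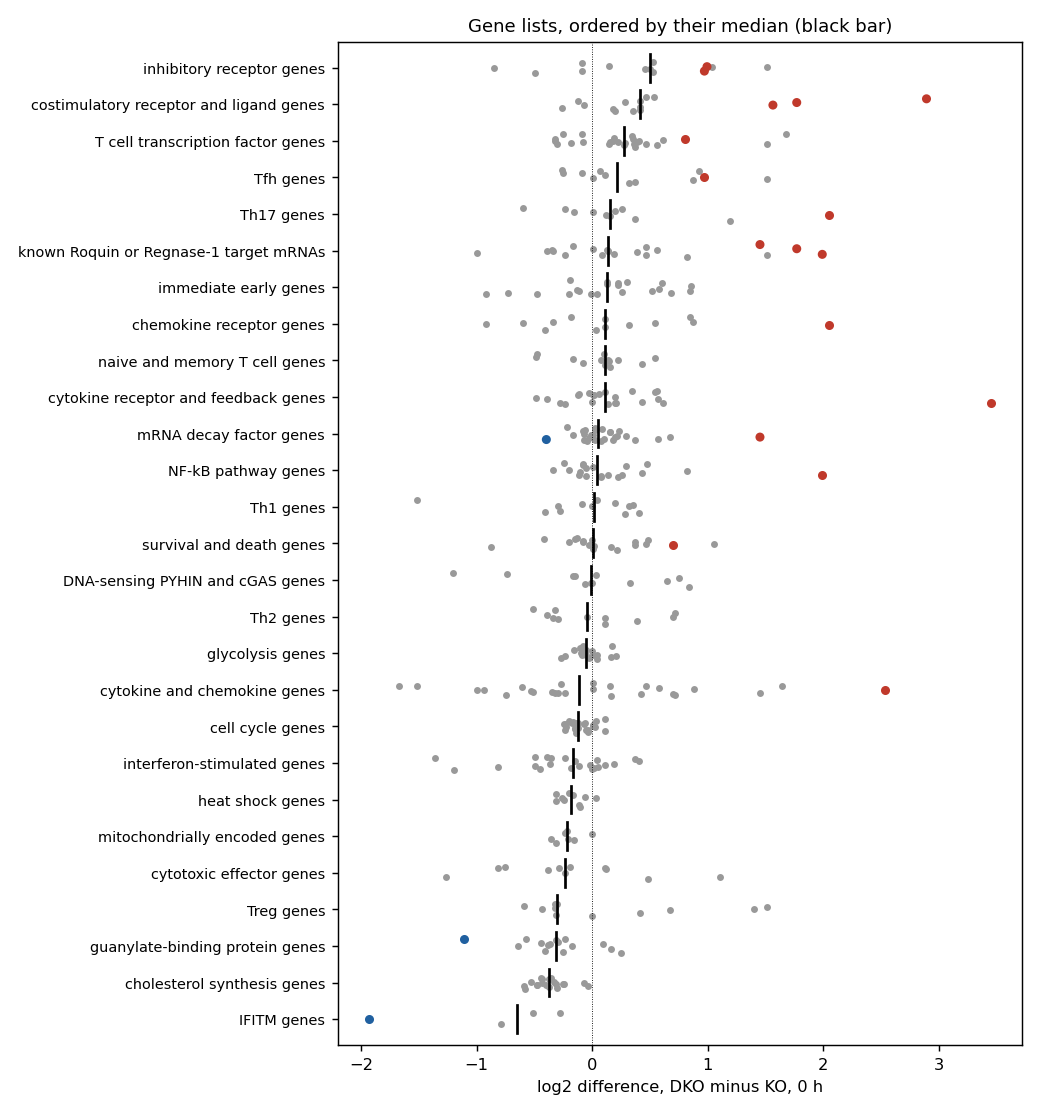
Log2 difference, DKO minus KO, at 0 h for the measured members of 27 gene lists, with the lists ordered by their median (black bar). Grey points were not called, red points were higher and blue points lower in DKO cells; inhibitory and costimulatory receptors have the highest medians, 0.50 and 0.41, and IFITM and cholesterol synthesis genes the lowest, -0.65 and -0.38.

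The same difference was measured in separate libraries after restimulation. Whether these libraries come from the same cultures as those of 0 h is not given. The fit treats all 64 libraries as independent, so a difference that recurs at a later time may not be an independent repeat. Between DKO and KO cells, 215 genes (1.33%) differed at 1 h, 454 (2.81%) at 2 h and 495 (3.07%) at 4 h, by the same test. Higher in DKO cells were 129 (0.799%), 237 (1.47%) and 75 (0.465%) of them at 1, 2 and 4 h, and lower were 86 (0.533%), 217 (1.34%) and 420 (2.60%). Of the 136 genes higher in DKO cells at 0 h, 132, 124 and 105 had the same direction at 1, 2 and 4 h, and 59, 48 and 15 were called in that direction. Of the 57 lower in DKO cells, 57, 55 and 52 had the same direction, and 29, 32 and 29 were called. Called at all 4 times were 10 of the 136 and 20 of the 57. Capn3 was among those higher throughout, with differences of 2.38, 2.11 and 1.35 at 1, 2 and 4 h (limma, adjusted p = 0.0013 or lower), as were Unc5b (2.92, 1.51 and 1.25), Ebi3 (2.38, 2.24 and 1.53) and Zc3h12a (1.08, 1.28 and 1.33). Zc3h12a is targeted in KO cells, so its differences cannot be read apart from the targeting. At 1 h its DKO, KO and WT means were 1127, 537.5 and 876 normalised reads, and at 2 h they were 1006, 411 and 664. KO cells thus lay below WT cells at both times. AA467197, at -2.04, -2.23 and -2.29, and Slc30a4, at -1.28, -1.32 and -1.15, were lower throughout, as were Prickle1, Cdc42bpb, Ifitm1 and Gbp2. Nfkbid had differences of 0.15, 0.43 and 1.42 at 1, 2 and 4 h, called again at 4 h (limma, adjusted p = 0.0013). For Tnfrsf4 they were 1.22, 0.69 and 0.58, called at 1 h (limma, adjusted p = 0.02). Nfkbiz, not called at 0 h, was lower in DKO cells at 2 h and 4 h, by -1.41 ± 0.21 and -1.06 ± 0.21 (limma, adjusted p = 1.4e-05 and 0.0013).

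A direct test of whether the difference itself changed used the 0 h libraries on both sides, so it is not independent of the calls at 0 h. From 0 to 1 h the difference changed for no gene (limma, with 241 genes at an unadjusted p below 0.05, and 575 from 0 to 2 h). Both numbers are below what chance alone gives at that threshold over 16140 genes. The absence of calls therefore does not show that the differences stayed the same. From 0 to 2 h it changed for 8 genes (0.0496%) and from 0 to 4 h for 30 (0.186%), 28 of them downwards; the 8 became 3 without DKO library 3 and 4 without KO library 1, and the 30 became 13 under the deposited scaling and 12 under upper-quartile factors. Among the 136 genes higher in DKO cells the numbers were 4 and 10, and among the 57 lower they were 0 and 2. Among the named genes whose change passed the test, Id2 changed most, with differences of 0.80, 0.81, -0.42 and -0.42 at 0, 1, 2 and 4 h. Notch2, a Notch receptor, and Cog2, a subunit of the conserved oligomeric Golgi complex, were called in opposite directions. Notch2 averaged 1483 ± 89.6 normalised reads in DKO libraries and 1077 ± 67.7 in KO libraries at 0 h (SD, n = 4 each; 0.46 ± 0.11, limma, adjusted p = 0.0149), and its difference at 4 h was -0.43 ± 0.11 (limma, adjusted p = 0.016). Cog2 averaged 359 ± 42.4 and 264 ± 19.4 at 0 h (0.44 ± 0.11, limma, adjusted p = 0.0207; 0.0751 without DKO library 3), and its difference at 4 h was -0.36 ± 0.11 (limma, adjusted p = 0.044). Of the 20 alternatives, 4 lost the 0 h call of Notch2 and 7 that of Cog2 (limma, adjusted p up to 0.0803 and 0.178). Rc3h1 differed by -0.59, -1.03 and -1.35 at 1, 2 and 4 h, and its change from 0 to 4 h was called. Rc3h1 is targeted in DKO and TKO cells, so its change cannot be read apart from the targeting. From 0 to 4 h its mean went from 640 to 1332 normalised reads in KO and from 609.5 to 1165 in WT libraries. In DKO libraries the mean went from 487 to 518 and in TKO libraries from 542 to 592.

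**Figure D4:**
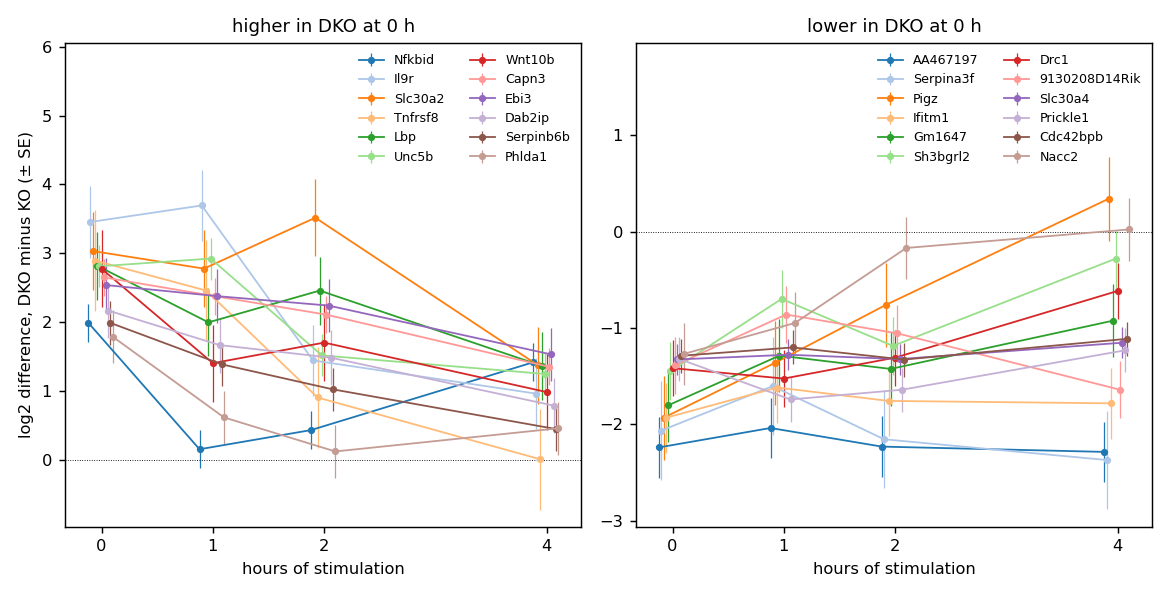
Log2 difference, DKO minus KO, ± SE (vertical axis) at 0, 1, 2 and 4 h of restimulation for the 12 named genes with the greatest differences in each direction at 0 h (left, higher in DKO cells; right, lower in DKO cells). AA467197 stays between -2.29 and -2.04, while Tnfrsf8 is at 2.89 at 0 h and at 0.01 at 4 h.

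In the authors' deposited table for the same pair of groups, 84 of the genes tested here had a false discovery rate below 0.05, 62 of them higher and 22 lower in DKO cells. Of these 84, 67 were also called here (79.8%), and they made up 34.7% of the 193 calls. All 193 genes had the same sign in the authors' deposited table. Both sets of calls rest on the same libraries, so the match in sign and in calls is not independent evidence.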

How the data were processed

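RNA sequencing of total RNA was done with the NuGEN Universal RNA-Seq kit, per the labels' protocols, on 64 libraries (4 genotypes, 4 times, 4 libraries each). The authors deposited 1 table of 23134 genes that lists the normalised values of each group's libraries; genome build GRCm38 is named in the submitters' processing notes, while aligner, counter, strand setting and annotation are not stated in those notes or the labels. The deposited group mean is a signal in the same units, which differed from the mean of the listed values by at most 0.049%. The authors' deposited log2 fold change and p-value column (a false discovery rate) of each comparison were read as given; how that rate was combined over tests is not stated.

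The value of 1 read was recovered for each library from its low values, which came out whole within 0.1 read, and values were turned back into reads. These were rescaled to the median depth with trimmed-mean (TMM) factors (trims of 30% and 5%). Genes with at least 10 reads at the median depth in 4 libraries and 15 reads in all were kept, 16140 of them. log2(value + 1) was fitted with limma 3.58.1 (R 4.3.3) as 16 group means over 64 libraries, with trended, robust variances (48 residual degrees of freedom, median residual SD 0.328 log2), and Benjamini-Hochberg adjustment over all genes. The fit was tested on simulated data. The value + 1 scale understates the change of low genes. Counting error at these depths is covered by the replicate spread. Python 3.11.15 with numpy 2.4.6 and pandas 2.3.3 did the rest.

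Without replicate numbers on the listed values, each library is named by its place in the list, which pairs no samples. A count test was foreseen in the design; limma on log values took its place. Named genes were the 3 targeted genes, 7 known targets, the 12 greatest differences in each direction (called, groups apart, the same sign under 5 scalings, at least 20 reads per library in the higher group), up to 3 called genes per list and direction, and up to 5 genes with opposite calls at 0 and 4 h. The members, the 36 lists (9 of them marker lists) and the tests were chosen with earlier results of these data known. Alternatives were other scalings, filters, pseudocounts, sets of libraries, limma voom and leaving out each library.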

Additional observations from a re-analysis of the deposited data

Results flagged for a closer look

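In groups of 4 libraries, the highest or lowest value was set against the gap to its neighbour for 84 groups; 10 stood apart, and chance alone gives about 1 in 20. DKO library 3 was the highest for Tnfrsf4, at 2808 normalised reads against 1094 to 1225 in the other 3 DKO libraries, for Slc30a2 (47.1 against 19.9 to 22.3), for Wnt10b (67.6 against 3.72 to 14.3), for Dab2ip (104 against 48.0 to 55.8) and for Ccr6 (78.2 against 16.8 to 24.5). DKO library 2 was the highest for Pigz, at 14.0 against 2.67 to 4.45. In KO libraries, Nfkbid had a low library at 66.0 against 106 to 113, Tnfrsf8 a high library at 107 against 51.0 to 59.5, Ccr6 a high library at 19.1 against 3.78 to 4.58, and Tnfsf14 a high library at 27.9 against 22.7 to 22.9.

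The difference between DKO and KO cells differed between times by a test of that change (limma, adjusted p below 0.05). For Id2 it changed by -1.22 log2 from 0 to 2 h and by -1.23 from 0 to 4 h. From 0 to 4 h it changed by -0.96 for Rc3h1, by -0.89 for Notch2 and by -0.80 for Cog2. Rc3h1 is targeted in DKO cells, so its change cannot be read apart from the targeting.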

How the results depend on the processing

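With 2 other sets of libraries the counts were lower: 89 genes (66 higher, 23 lower in DKO cells) with only the 8 DKO and KO libraries of 0 h, and 70 (52 higher, 18 lower) with the 16 libraries of 0 h; both fits estimate the spread from fewer libraries. With no filter on low values 35 genes were lower in DKO cells. The number of genes whose difference changed from 0 to 4 h was 13 under the deposited scaling and 12 under upper-quartile factors; the cause was not tested. Leaving out 1 library at a time gave 107 to 225 genes in all, 70 to 162 higher and 32 to 63 lower, 62 to 87, 55 to 79 and 30 to 39 called the same way at 1, 2 and 4 h, and 0, 3 to 11 and 23 to 38 genes with a changed difference at 1, 2 and 4 h. The numbers higher in DKO cells moved most without DKO library 1 (85), DKO library 3 (70), KO library 1 (82) and KO library 3 (85), and those lower without DKO libraries 3 and 4 (37 each) and KO libraries 1, 3 and 4 (32, 33 and 37). With the place in the list as a replicate block, 196 genes were called (139 higher, 57 lower). Libraries of the same place had correlations of -0.29 to -0.11 in their deviations from the group means, so equal places pair no samples. Each DKO library correlated best with a different KO library. DKO libraries 1, 2, 3 and 4 did so with KO libraries 4, 1, 2 and 3 (0.54, 0.34, 0.42 and 0.27). Whether these libraries share a culture or batch was not tested. The fit treats them as independent, and the block on place does not cover these pairs. limma voom called 244 genes. Of the named calls, 4, 3, 11 and 3 were lost without DKO libraries 1 to 4 and 5, 2, 7 and 8 without KO libraries 1 to 4. Of the 36 named genes called, 17 were called under every alternative that kept them. Over all named genes 81 values lost the call, 5 gained it (all for Ctla4) and none reversed. edgeR and DESeq2, foreseen as alternatives, were not run; limma voom was run on the recovered reads.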

Other observations

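Called genes within 10 Mb of the targeted loci were counted. Of 130 genes tested around Rc3h1 on chromosome 1, 3 were called (2.31%), all higher in DKO cells, namely Tada1, Fam129a and Rgs16. Around Rc3h2 on chromosome 2, Dab2ip and Gm13408 were called among 170 genes (1.18%), and around Zc3h12a on chromosome 4, Slc30a2, Elovl1 and Gpbp1l1 among 256 (1.17%). Over all genes 193 of 16140 were called.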
